A study of Mus musculus with 74 samples.

Results

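Spinal cord microglia of SOD1-G93A mice were compared between disease onset and the pre-symptomatic stage. The members are the libraries that the labels assign to these 2 stages, 5 at onset and 4 before symptoms, so 9 of the 74 samples of the series and 9 of its 33 non-grafted spinal cord microglia samples. All mice were female, on C57BL/6J, and carried mutant human SOD1 with the G93A change, which causes a motor neuron disease in mice and serves as a model of amyotrophic lateral sclerosis. None had a bone marrow graft. The pre-symptomatic mice had a mean age of 50.8 days, and the onset mice, which were taken at their weight peak, 105 days. Stage and age therefore differ together in this comparison and cannot be told apart by it. For reference, values are also given for 4 mice with wildtype human SOD1 (WT, mean age 107.3 days) and 4 non-transgenic C57BL/6J mice (B6, 109.8 days), both near the age of onset. The cells of 1 spinal cord of 1 mouse made a library. They were freed of myelin on a Percoll gradient and taken with magnetic beads against CD11b, kept at 4 °C and without enzymes. CD11b is an integrin chain of myeloid cells, so neutrophils and monocytes can be taken along with microglia.

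Microglia are the resident macrophages of the central nervous system. In the healthy cord they express a homeostatic set of genes that includes the purinergic receptor P2ry12 and the fractalkine receptor Cx3cr1. Near dying neurons, plaques or lost myelin they take on a disease-associated program, in which the receptor Trem2 and its adaptor Tyrobp promote genes of phagocytosis, lipid handling and lysosomal degradation. Proliferation of microglia is also well known in mouse models of motor neuron disease.

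Transcripts of other spinal cord cells made up a large and uneven share of the libraries. Values are FPKM, that is fragments scaled by transcript length and by the mapped fragments of the library. The myelin gene Mbp, which oligodendrocytes express, was at 24163.5, 22661.4, 21093.8 and 23454.9 FPKM in pre-symptomatic replicates 1 to 4. In onset replicates 1 to 5 it was at 23950.4, 1575.4, 568.3, 18996.1 and 2193.7 FPKM. Onset replicates 2, 3 and 5 were thus far lower than the other 6 libraries, and the WT and B6 libraries ran from 15860.4 to 24147.0 FPKM. The 10 oligodendrocyte markers summed to between 822 and 31920 FPKM at onset and between 27870 and 32440 before symptoms, the 10 astrocyte markers to between 252.5 and 10400 against 7295 and 9479, and the 10 neuron markers to between 15.69 and 551.1 against 396.2 and 560.6. None of these markers was at 0 in all 9 libraries. The 20 homeostatic microglia genes summed to 5986, 16137.5, 26538.1, 6445 and 10085.4 FPKM in onset replicates 1 to 5, and to 5623, 5704, 9165 and 14583 FPKM before symptoms. In bulk RNA, fewer cells of a type and less RNA per cell cannot be told apart.

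Onset replicate 5 also held transcripts of blood cells. S100a8, a calcium-binding protein gene of neutrophils, was at 39128.5 FPKM there, against 72.7 to 345.9 in the other onset libraries and 13.96 to 156.6 before symptoms. The 10 neutrophil markers summed to 68217.8 FPKM in that library, the 10 monocyte markers to 5345 and the 4 erythroid markers to 23922.6. In the other 4 onset libraries these sums reached at most 863.9, 62.4 and 625.5 FPKM. Across the 11750 genes tested, the pre-symptomatic libraries and onset replicates 1 and 4 correlated at 0.93 to 0.99 with each other (Pearson's r of log2(FPKM + 1) across genes, which are not independent). Onset replicates 2, 3 and 5 correlated at 0.85 to 0.97 with each other and at 0.53 to 0.80 with the rest. The labelled cell type was present in all 9 libraries, since P2ry12 was at 188.1 FPKM or more in each, but none was free of other cells' RNA.

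**Figure D1:**
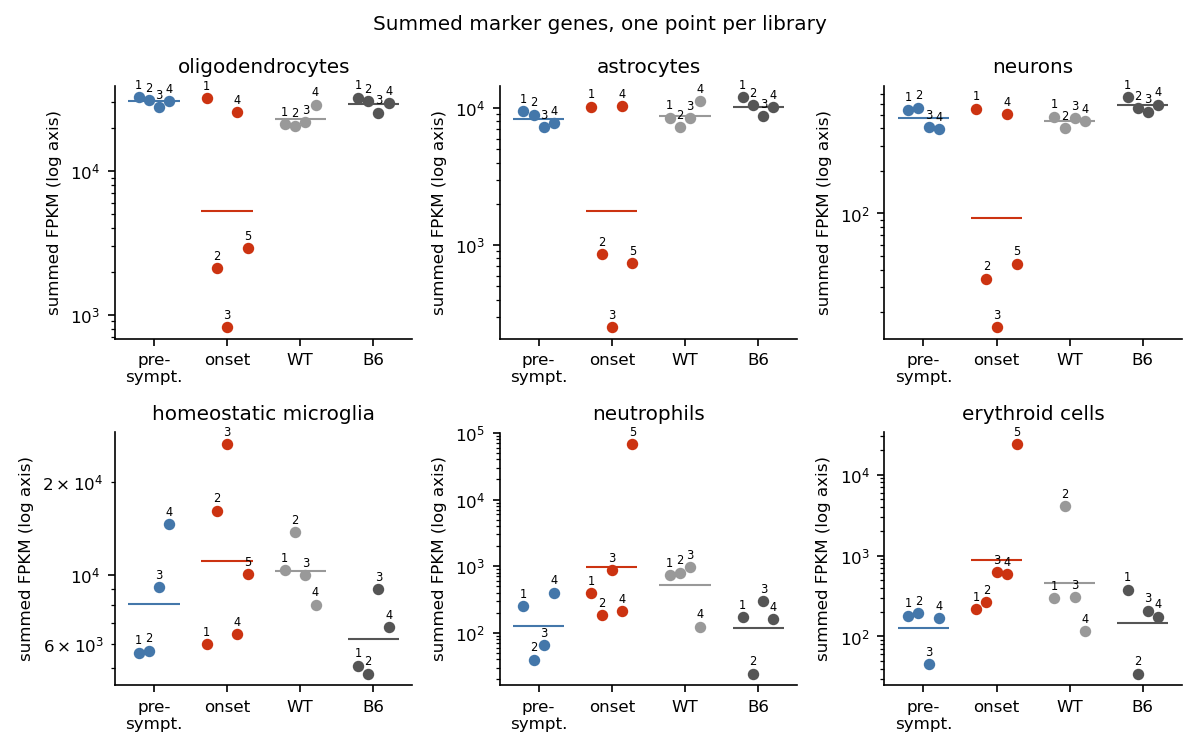
Summed FPKM (log axis) of marker genes for 6 cell types, with 1 point per library labelled by its replicate number and a line at the geometric mean of the group, for G93A pre-symptomatic, G93A onset, WT and B6. Onset replicates 2, 3 and 5 lie below all other libraries for oligodendrocyte, astrocyte and neuron markers, and onset replicate 5 is highest for neutrophil and erythroid markers.

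The spread within the onset group set what could be tested. Differences were tested with limma on log2(FPKM + 1), with a single spread per gene estimated from all 33 non-grafted microglia libraries, and a gene counted as called where its p, adjusted after Benjamini and Hochberg, was under 0.05. The median SD of a gene on this scale was 0.65 at onset and 0.24 before symptoms, and in 94.31% of the genes tested the SD was larger at onset. The pooled spread thus understates that of the onset group. With it, 2982 of 11750 genes (25.4%) were called, 1216 higher (10.3%) and 1766 lower (15%) at onset. With each library rescaled to an equal sum over named genes, which raised the genes tested to 13313, 748 were higher and 2735 lower. With the 9 libraries alone, or with a variance per group, 0 were called, with 1308 and 3480 genes at an unadjusted p under 0.05, and with the 9 libraries the adjusted p was 0.314 or more for every gene. The count also rested on single libraries: it was 0 without onset replicate 2 or 3 or without pre-symptomatic replicate 2 or 3, 6 without onset replicate 5, 10 without pre-symptomatic replicate 1, and 6968 and 6483 without onset replicate 1 and 4. The counts per gene list below rest on the same libraries, so that no list held a called gene where the total was 0.

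A plainer count does not use the spread. In 239 genes (2.03% of those tested) every onset library was above every pre-symptomatic one, and in 45 genes (0.383%) every onset library was below. Of these 284 genes, 199 (1.69% of those tested) were called higher and 31 (0.264%) called lower. The sum was 1011 without onset replicate 1, 507 without onset replicate 4 and 986 without pre-symptomatic replicate 4. Leaving out a library removes values that could overlap, so the direction of this move was fixed, apart from small changes in the genes tested. For a single gene the exact two-sided permutation test (126 arrangements of 5 against 4 libraries) can go no lower than p = 0.0159. Each gene below whose groups are said not to overlap has that value. The value follows from the lack of overlap itself, so it is no further evidence. How many genes would separate with shuffled labels was not tested. "Called" below means called with the pooled spread. Counts per list against pre-symptomatic are to be read beside the shares over all genes tested. These were 10.3% called higher, 15% called lower and 2.03% with every onset library above.

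Genes of the disease-associated program were among those with the largest changes. Spp1 (chromosome 5, 104435111 to 104441053, mm10), which encodes the secreted matrix protein osteopontin, was at 148.6, 5621, 1365, 165.2 and 210.2 FPKM in onset replicates 1 to 5, against 85.9, 4.98, 15.2 and 13.4 FPKM before symptoms. The groups did not overlap, but pre-symptomatic replicate 1 came close to the lowest onset library. The change of 4.82 ± 0.87 (log2, SE) was the largest among called genes without overlap that reached 5 FPKM in the higher group.

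Cst7 (chromosome 2, 150570414 to 150578944), the gene of the cathepsin inhibitor cystatin F, was at 18.1, 889.8, 225.9, 22.2 and 45.8 FPKM at onset and at 12.5, 1.56, 3.87 and 2.36 FPKM before symptoms. Clec7a (chromosome 6, 129461591 to 129472779), which encodes the beta-glucan receptor dectin-1, was at 21.9, 392.6, 203.7, 32.5 and 76.8 FPKM against 14.8, 2.13, 10.9 and 10.9 FPKM. Lpl, which encodes lipoprotein lipase, was at 49.4, 951.5, 488.6, 77.8 and 151.8 FPKM against 31.6, 7.19, 22.7 and 28.5 FPKM. In all of them onset replicate 2 was highest and onset replicate 1 lowest of its group, and the groups stayed apart. The changes were 4.11 ± 0.78, 3.24 ± 0.71 and 3.23 ± 0.65.

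Of the 24 disease-associated genes tested, 19 were higher, 0 lower and 5 not called, with a median change of 1.96 beside 0.14 over all genes tested. The groups did not overlap in 10 of them: Spp1, Cst7, Clec7a, Lpl, Lgals3, Ch25h, Csf1, Itgax, Igf1 and Cd63. Lgals3, which encodes the sugar-binding protein galectin-3, changed by 4.00 ± 0.84 and Ch25h, a cholesterol hydroxylase gene, by 3.49 ± 0.71. Itgax, which encodes the integrin chain CD11c, was at 2.23 to 79.7 FPKM at onset and 0.27 to 1.36 before. Trem2 itself was at 123.7, 1528, 1539, 171.4 and 554.9 FPKM at onset and 118.5, 93.2, 263.5 and 385.6 before symptoms, so the groups overlapped, and its change of 1.41 ± 0.65 was not called (adjusted p = 0.087). Apoe, the lipid carrier, was not called either: it was at 970.1 to 23732.7 FPKM at onset and at 2372 to 2636 FPKM before, a change of 0.69 ± 0.49 (adjusted p = 0.243). Without onset replicate 2 the list's median was 1.47 with 0 genes called, and without onset replicate 1 it was 2.41 with 21 higher and 1 lower.

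**Figure D2:**
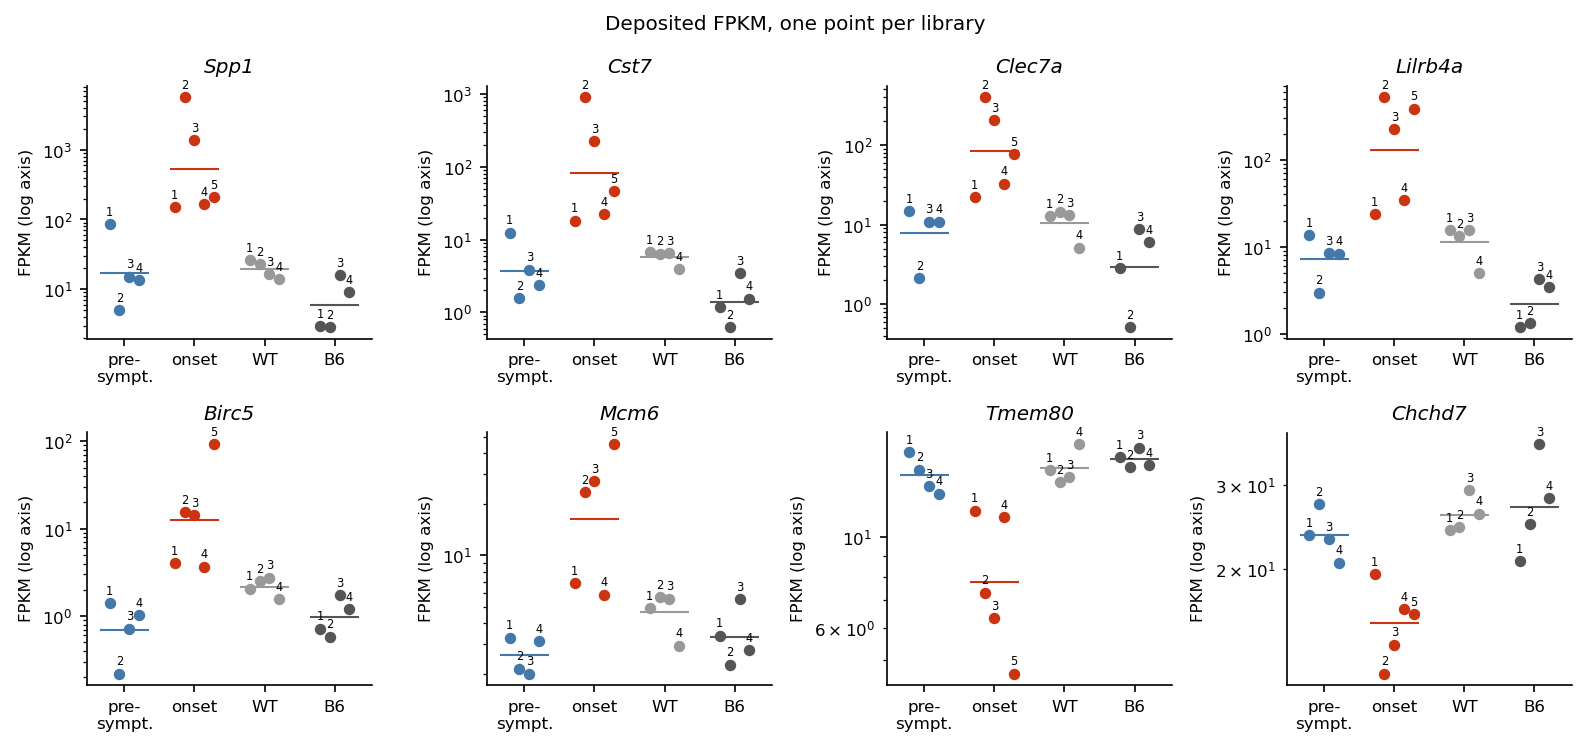
FPKM (log axis) of 8 genes with 1 point per library, labelled by replicate number, and a line at the geometric mean, for G93A pre-symptomatic, G93A onset, WT and B6. The onset points lie above all pre-symptomatic points for Spp1, Cst7, Clec7a, Lilrb4a, Birc5 and Mcm6 and below them for Tmem80 and Chchd7.

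Lilrb4a (chromosome 10, 51490898 to 51496613), an inhibitory immunoglobulin-like receptor, was at 23.9, 519.4, 224.7, 34.4 and 386.5 FPKM at onset and 13.6, 2.99, 8.47 and 8.34 FPKM before symptoms, a change of 3.96 ± 0.73. Its near relative Lilr4b changed by 3.54 ± 0.86. These genes are close copies, so how their reads were split is uncertain. Plaur, the urokinase receptor, was at 12.5 to 407.8 FPKM against 2.00 to 8.11, and Cd72, a C-type lectin family receptor, at 13.04 to 216.3 FPKM against 2.53 to 9.73. Msr1, a scavenger receptor, was at 2.34 to 55.4 FPKM against 0.27 to 1.26. In these genes, as in Mmp12, which encodes a macrophage elastase, the lowest onset library was above the highest pre-symptomatic one. Fixed receptor lists held fewer called genes, beside 10.3% higher and 15% lower over all genes tested. Of 12 pattern recognition receptors 1 was higher, near the share of all genes, and 0 lower. Of 16 complement and Fc receptor genes 4 were higher and 1 lower. In these lists 0 genes had groups that did not overlap. Their medians were 0.98 and 1.38, and -0.24 and -0.04 with terms in the fit for the oligodendrocyte and neutrophil scores of each library (hereafter the score terms).

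Cybb, the catalytic subunit of the phagocyte NADPH oxidase, was at 6.16, 104.1, 30.6, 10.0 and 355.6 FPKM at onset and at 2.43, 0.47, 2.35 and 2.75 FPKM before symptoms. Of the 6 oxidase genes tested, 3 were higher and 0 lower, with a median change of 1.83, and Cybb alone among these 6 did not overlap. Cybb was highest in onset replicate 5, where the neutrophil markers were also highest, and neutrophils express this oxidase. In the other 4 onset libraries Cybb ran from 6.16 to 104.1 FPKM. With the score terms the median of the 6 oxidase genes was -0.03. The part of neutrophils in these values was not tested.

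Chemokines that attract leukocytes were higher. Ccl3 was at 5.43, 84.7, 58.9, 11.4 and 26.4 FPKM at onset and 3.98, 1.22, 1.82 and 2.64 FPKM before symptoms. Ccl4 was at 44.2, 771.3, 626.9, 85.2 and 156.2 FPKM against 32.6, 7.95, 31.7 and 26.1 FPKM. Neither gene's groups overlapped, nor did those of Ccl2, at 2.70 to 28.9 FPKM against 0.30 to 1.74. Of the 12 chemokine ligands tested 9 were higher, with a list median of 2.19, or 0.89 with the score terms. The 2 that were lower, Cxcl14 (-1.53) and Cx3cl1 (-1.44), are known from astrocytes and neurons, whose markers were low in onset replicates 2, 3 and 5 too. The part of those cells in the 2 falls was not tested.

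Among inflammatory cytokines and NF-kB targets, 6 of 14 were higher and 0 lower, with a median change of 1.18, which was -0.10 with the score terms. Il1b, the gene of interleukin-1 beta, was at 2.60, 10.1, 13.3, 2.48 and 86.5 FPKM at onset and at 0.44, 0.61, 1.88 and 1.49 FPKM before symptoms, without overlap, while Tnf overlapped, at 0.35 to 6.31 FPKM against 0.04 to 0.98. Immediate early genes, which are transcribed within minutes of a stimulus, gave 5 of 10 higher and 0 lower, with a median of 1.45, or 0.23 with the score terms. Egr2 was at 2.21, 23.4, 16.9, 3.82 and 3.36 FPKM at onset and 0.39 to 1.00 FPKM before symptoms, and Atf3 at 4.00 to 70.0 FPKM against 1.19 to 3.35. Fos did not follow them: it was at 1.68 to 52.95 FPKM at onset and 1.40 to 4.45 before, with a change of 0.73 ± 0.63 (adjusted p = 0.331).

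Most cell cycle genes separated the groups. In 14 of 19 tested every onset library was above every pre-symptomatic library, next to 2.03% of all genes tested, and 18 of 19 were called higher and 0 lower, with a median change of 1.99. With each library centred on its homeostatic genes, as described further on, 1 of 19 separated the groups and 0 were called, and with the score terms the median was 0.72 with 1 called. The levels were low. Genes entered the test by their mean over all 33 libraries (at least 1 FPKM), onset included. Top2a and Mki67, below 1 FPKM in every pre-symptomatic library, thus passed only through groups where they were higher. Birc5 (chromosome 11, 117849237 to 117855755), which encodes survivin of the mitotic spindle, was at 4.05, 15.6, 14.3, 3.67 and 93.4 FPKM at onset and 1.40, 0.22, 0.72 and 1.03 FPKM before symptoms. Mcm6, a subunit of the replicative helicase, was at 6.85, 23.5, 27.3, 5.88 and 45.2 FPKM against 3.28, 2.16, 2.02 and 3.13 FPKM. Top2a, the topoisomerase of dividing cells, was at 0.94 to 22.4 FPKM against 0.05 to 0.39, and Mki67, the gene of the proliferation antigen Ki-67, at 0.67 to 15.3 FPKM against 0.01 to 0.39.

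Every one of these 4 proliferation genes was highest in onset replicate 5, where the neutrophil, monocyte and erythroid markers were highest too, and the part of blood cell precursors in that library was not tested. Without onset replicate 5 the list's median was 1.48, with 1 gene called. In the same fit, 8 of the 19 were also called higher at onset than in WT, beside 1.04% of all genes tested. Without onset replicate 5 the count of all genes called against WT fell from 506 to 16. In WT Birc5 ran from 1.55 to 2.75 FPKM and Mcm6 from 2.94 to 5.67. The lowest onset library was above the highest WT library for both.

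Lysosomal and antigen presentation genes were higher on average, but their groups overlapped. Of 23 lysosomal genes 12 were higher and 0 lower, with a median of 1.40 (0.30 with the score terms), and Cd63 alone among them did not overlap. Ctsd, which encodes the protease cathepsin D, was at 1556, 21351.8, 13382.7, 1810 and 3897 FPKM at onset and at 1156, 746.7, 1566 and 2227 FPKM before symptoms. Cd68, a macrophage lysosome glycoprotein, was at 88.7 to 1252 FPKM against 41.4 to 210.7. For both, onset replicates 1 and 4 fell within the pre-symptomatic range. Of 12 genes of MHC class I presentation 8 were higher, and of 7 genes of class II 3 were higher, with 0 lower in both lists and medians of 1.46 and 1.93, or 0.06 and 0.34 with the score terms. H2-K1, a class I heavy chain, was at 53.03 to 458.4 FPKM against 35.6 to 87.7, and Cd74, the class II invariant chain, at 52.2 to 927.6 FPKM against 17.8 to 110.9.

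Among type I interferon genes, 17 of 21 were higher and 0 lower, with a median change of 1.38 (0.53 with the score terms), and in 3 of them the groups did not overlap: Ifit1, Ifit2 and Zbp1. Isg15, a ubiquitin-like protein, was at 3.51, 13.5, 13.03, 4.63 and 31.2 FPKM at onset and 4.32, 2.55, 2.86 and 2.94 FPKM before symptoms. Irf7, a transcription factor of the pathway, was at 4.05 to 65.7 FPKM against 3.07 to 5.59. Ifit3 was flatter, at 29.3, 42.0, 40.4, 38.5 and 18.3 FPKM against 23.1, 9.29, 14.9 and 14.2 FPKM, and onset replicate 5 was its lowest onset library although Isg15 was highest there.

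The promoters of lists that moved together were searched for the element each pathway is known by, in the 250 bases before the start of transcription, on both strands (RefSeq sequences on GRCm38.p6). The interferon-stimulated response element was searched as GAAANNGAA. It was in 7 of the 15 interferon genes with a promoter entry (Bst2, Ifit1, Ifit3, Isg15, Oas1a, Rsad2 and Stat2), and in 8.18% of all 27025 genes with an entry. The CLEAR element of lysosomal genes, searched as CACGTGAC, was in 3 of 18 lysosomal genes (Ctsa, Ctsd and Lamp1) and in 2.11% of all. The sterol element TCACCCCAC was in 1 of 13 cholesterol synthesis genes, Hmgcs1, and in 0.555% of all. Matches of one element may overlap, as in Isg15. Stretches from genes with values in this text follow, 5′ to 3′ on the gene's strand, with the match in capitals; a match is a string of letters and not a measured binding site. They lie at chr4:156200858-156200926 (minus strand, Isg15), chr19:34583378-34583446 (plus, Ifit3), chr7:142387888-142387955 (minus, Ctsd) and chr13:119690184-119690252 (plus, Hmgcs1).
Isg15: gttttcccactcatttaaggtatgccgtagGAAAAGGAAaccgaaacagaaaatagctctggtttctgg
Ifit3: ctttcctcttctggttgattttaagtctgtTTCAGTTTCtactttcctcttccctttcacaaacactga
Ctsd: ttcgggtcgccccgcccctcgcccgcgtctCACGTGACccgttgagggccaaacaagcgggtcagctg
Hmgcs1: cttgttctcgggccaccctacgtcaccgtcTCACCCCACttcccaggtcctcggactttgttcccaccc

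Homeostatic genes were not lower at onset in absolute FPKM. P2ry12 was at 215.8, 564.8, 2121, 257.2 and 896.2 FPKM at onset and 188.1, 212.3, 676.9 and 1215 FPKM before symptoms, a change of 0.42 ± 0.61 (adjusted p = 0.568). Tmem119, a microglial surface gene of unknown ligand, changed by 0.66 ± 0.61 (adjusted p = 0.368) and Cx3cr1 by 0.74 ± 0.59 (adjusted p = 0.29). Of the 20 listed, 19 had a positive change and none of those was called. The median change of the 20 was 0.72, and it was -0.65 with the score terms. The exception in sign, Sparc, which encodes a matrix protein also made by astrocytes and endothelial cells, was lower (-0.70 ± 0.25, adjusted p = 0.043).

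**Figure D3:**
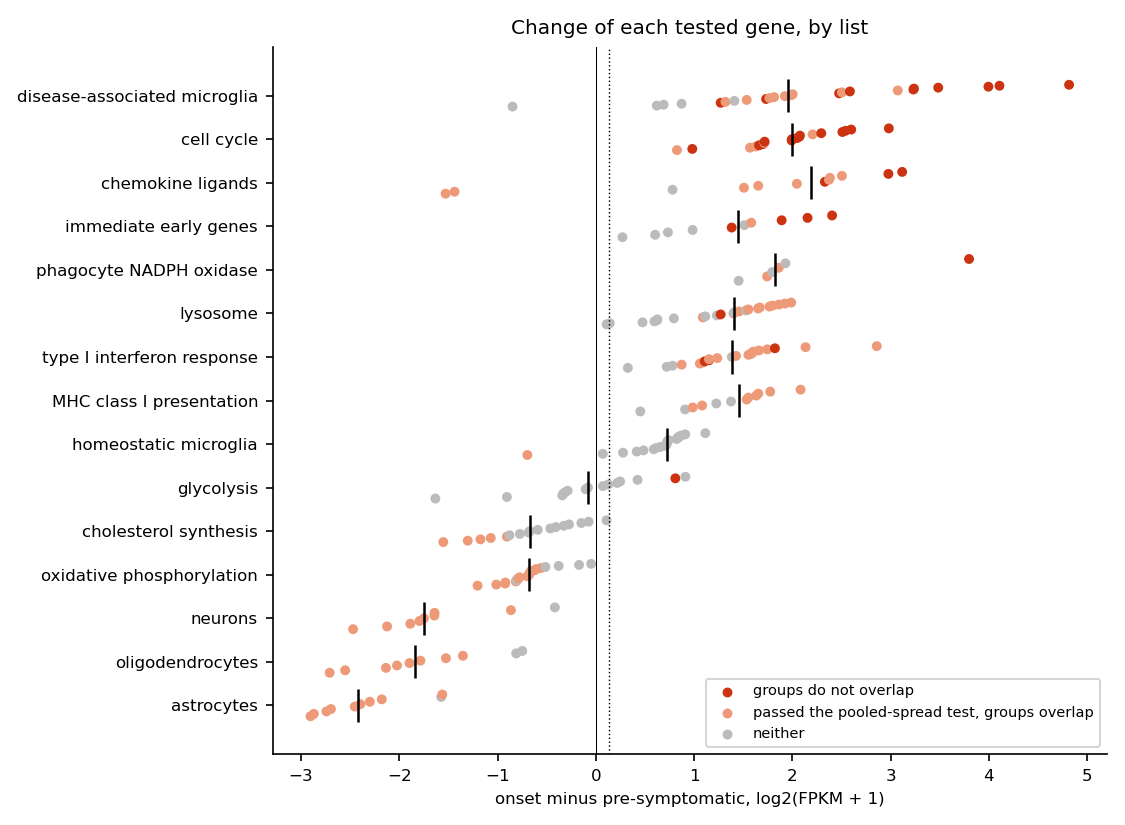
Change from pre-symptomatic to onset of each tested gene (points, log2(FPKM + 1)) in 15 lists, with the list's median as a bar and the median of all tested genes as a dotted line. Dark red points are genes whose onset and pre-symptomatic libraries do not overlap, light red points were called with the pooled spread only, and grey points neither; the disease-associated and cell cycle lists hold 10 and 14 dark red points.

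Because the homeostatic level itself varied between libraries, each gene was also set against it within its own library. This measure was chosen after the data were seen. It is the gene's FPKM divided by the geometric mean FPKM of the 20 homeostatic genes. That mean ran from 63.7 to 518 at onset and from 59.6 to 252.6 before symptoms. A ratio can rise because this mean falls, and the median change of the 20 genes was -0.65 with the score terms. Sparc, also made by astrocytes and endothelial cells, is among the 20. The same limits hold for values centred on this list. For Clec7a the onset libraries lay closer together on this measure than in FPKM, where they ran from 21.9 to 392.6. The ratio was 0.344, 1.51, 0.393, 0.381 and 0.398 in onset replicates 1 to 5. Before symptoms it was 0.249, 0.0336, 0.0695 and 0.0432, and it ran from 0.047 to 0.0736 in WT and from 0.0169 to 0.0737 in B6. For this gene onset replicates 1 and 4, with Mbp near the pre-symptomatic level, gave nearly the ratio of replicates 3 and 5, with low Mbp. Onset replicate 2 stood above them all, and pre-symptomatic replicate 1 stood above its own group. Not every gene did so: the Lilrb4a ratio was 0.374, 1.99, 0.434, 0.402 and 2.00 in onset replicates 1 to 5. The part of other cells' RNA in these ratios was not tested.

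Some other genes, like Clec7a, were higher at onset on the ratio. The Lpl ratio was 0.775 to 3.65 at onset, 0.113 to 0.529 before symptoms and 0.0989 to 0.181 in WT. For Ccl4 it was 0.694 to 2.96 at onset, 0.103 to 0.547 before symptoms and 0.123 to 0.189 in WT. Cd68, whose FPKM overlapped, did not overlap on the ratio, which was 1.39, 4.80, 1.91, 1.495 and 1.95 at onset and 1.13, 0.653, 0.635 and 0.834 before symptoms. Ctsd was likewise at 20.2 to 81.9 against 8.81 to 19.4. The P2ry12 ratio, of a gene that is itself among the 20, was 3.39, 2.17, 4.09, 3.01 and 4.65 at onset and 3.16, 3.35, 4.30 and 4.81 before, with onset replicate 2 lowest.

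Spp1, which separated the groups in FPKM, did not on the ratio. It was 2.33, 21.5, 2.64, 1.93 and 1.09 at onset and 1.44, 0.0786, 0.0967 and 0.0532 before symptoms, so that pre-symptomatic replicate 1 lay above onset replicate 5. In WT and B6 the Spp1 ratio stayed between 0.0578 and 0.142. Pre-symptomatic replicate 1 was also the highest of its group in the ratios of Cst7 (0.209 against 0.00934 to 0.0246 in the other 3), Lgals3 (0.292 against 0.0342 to 0.0502) and Itgax (0.0228 against 0.00356 to 0.00788), and it had a low homeostatic mean of 59.6 FPKM, close to the 63.4 FPKM of replicate 2.

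**Figure D4:**
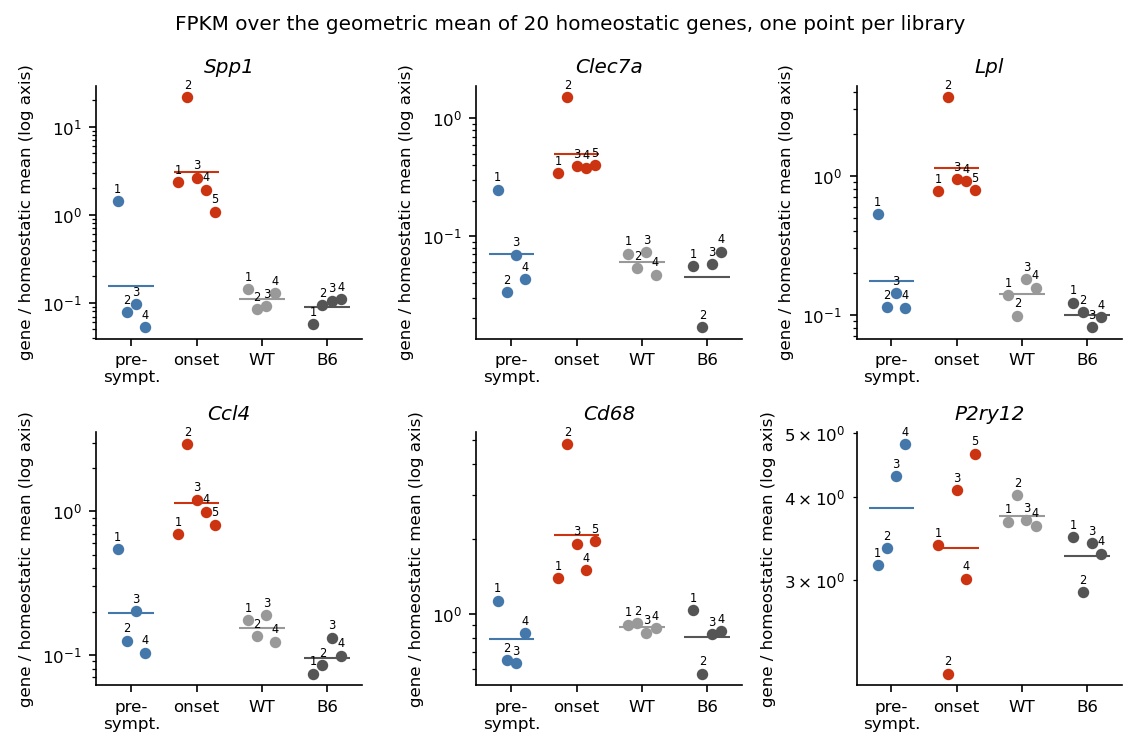
Ratio of a gene's FPKM to the geometric mean FPKM of the 20 homeostatic genes in the same library (log axis), for 6 genes, with 1 point per library labelled by replicate number and a line at the geometric mean, in G93A pre-symptomatic, G93A onset, WT and B6. Onset lies above pre-symptomatic, WT and B6 for Clec7a, Lpl, Ccl4 and Cd68, pre-symptomatic replicate 1 reaches the onset range for Spp1, and the groups overlap for P2ry12.

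Refitted on values centred on the homeostatic list in each library, the limma test with the spread of all 33 libraries called 37 genes, all higher (0.315%), and 0 with the 9 libraries alone (116 genes at an unadjusted p under 0.05). The 37 held 9 of the 24 disease-associated genes and 7 of the 12 chemokines, and none of the 19 cell cycle genes. Among them were Cd72 (2.41, adjusted p = 0.00257), Clec7a (2.63, adjusted p = 0.00318), Lilrb4a (3.35, adjusted p = 0.00318), Cxcl16, a chemokine bound to the membrane (1.77, adjusted p = 0.00318), Capg, an actin-capping protein gene (2.14, adjusted p = 0.008), and Grn, which encodes the lysosomal protein progranulin (1.19, adjusted p = 0.0469). On the centred scale 174 genes (1.48%) had every onset library above every pre-symptomatic library and 0 had every one below. Of the cell cycle genes, 1 of 19 separated the groups on this scale, in place of 14, and of the disease-associated genes 8 of 24, in place of 10. Several other lists gained such genes. Complement and Fc receptors held 10 of 16 in place of 0, and chemokines 7 of 12 in place of 3. The NADPH oxidase held 5 of 6 in place of 1, and the lysosome list 7 of 23 in place of 1. MHC class I and II held 5 of 12 and 5 of 7, both in place of 0. The interferon and immediate early lists held 1 of 21 and 1 of 10, in place of 3 and 4.

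Marker genes of other cord cells were lower on average. Of 10 astrocyte markers 9 were lower and 0 higher (median -2.42), of 10 oligodendrocyte markers 8 and 0 (median -1.84), and of 9 neuron markers 8 and 0 (median -1.75). None of these 29 genes separated the groups. Slc7a10, an amino acid transporter gene of astrocytes, was at 143.6, 3.75, 2.33, 163.0 and 7.32 FPKM at onset and 130.7 to 158.5 FPKM before symptoms, so that onset replicates 1 and 4 were at the pre-symptomatic level. Snap25, a synaptic gene, was at 220.2, 13.5, 7.83, 181.7 and 17.1 FPKM against 136.3 to 205.3 FPKM. Gfap, the astrocyte filament gene, was at 1378, 377.8, 27.7, 1359 and 53.6 FPKM against 1176, 894.9, 636.5 and 505.5 FPKM, and was highest in onset replicates 1 and 4.

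Respiratory chain and sterol genes followed the same libraries. Of 22 genes of oxidative phosphorylation 16 were lower and 0 higher (median -0.68), without a single one whose groups did not overlap. Cox6c, a subunit of cytochrome oxidase, was at 655.9, 208.4, 152.0, 523.2 and 214.2 FPKM at onset and at 737.3, 771.1, 698.7 and 558.8 FPKM before symptoms. The share of FPKM on mitochondrial chromosome features was 11.68%, 1.60%, 0.735%, 10.17% and 0.991% at onset and 12.68%, 13.41%, 11.68% and 6.86% before symptoms. Of 17 cholesterol synthesis genes 5 were lower and 0 higher (median -0.67). Hmgcs1, an early enzyme of the pathway, was at 204.5, 28.5, 24.6, 246.5 and 32.02 FPKM at onset and 157.2 to 215.1 FPKM before symptoms. With the score terms, the medians of the oxidative phosphorylation and cholesterol lists were -0.03 and 0.01, and that of the disease-associated list was 0.62. In that fit 0 of the 24 disease-associated genes were called, and 0 in the oxidative phosphorylation and cholesterol lists. The cell cycle list held 1 called gene, as said above.

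A few lower genes did separate the groups. Tmem80 (chromosome 7, 141328129 to 141337155), a transmembrane gene, was at 11.6, 7.31, 6.33, 11.2 and 4.63 FPKM at onset and 16.2, 14.7, 13.4 and 12.8 FPKM before symptoms, a change of -0.79 ± 0.18. Chchd7, which encodes a mitochondrial protein, was at 19.5, 12.1, 13.9, 16.5 and 16.1 FPKM against 23.5, 27.3, 23.1 and 20.6 FPKM (-0.58 ± 0.16). Both were also called lower than in WT, by -0.84 and -0.71 (adjusted p = 0.0372 and 0.043). Dusp22, a phosphatase gene, was at 8.70 to 14.2 FPKM against 15.6 to 18.4, and Ctnnbip1, an inhibitor of beta-catenin, at 5.38 to 15.5 FPKM against 17.3 to 18.1. Gpx8, a peroxidase of the endoplasmic reticulum, was at 3.85, 0.16, 0.07, 2.80 and 0.45 FPKM against 4.70 to 7.02. The largest falls without overlap, Sh3gl3 (-2.66 ± 0.70) and Vstm4 (-2.52 ± 0.62), were lowest in onset replicates 2, 3 and 5, like the markers of other cord cells. Tmem80, Chchd7 and Gpx8 were lowest in those libraries too, though Chchd7 differed little between onset replicates 4 and 5. With each library centred on its homeostatic genes, 0 genes had every onset library below every pre-symptomatic one.

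The mouse Sod1 gene was at 50.2, 22.7, 20.5, 40.7 and 14.1 FPKM at onset and 48.2, 49.7, 40.7 and 37.7 FPKM before symptoms, a called change of -0.69 ± 0.25 (adjusted p = 0.044), which was 0.02 with the score terms. The row carries the mouse gene's symbol, and whether fragments of the human transgene were counted in it is not stated, so these values do not check the labelled genotype.

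Against animals of the same age, the same 5 onset libraries called 506 of 11750 genes over WT (4.31%; 122 higher, 1.04%, and 384 lower, 3.27%) and 6477 over B6 (55.1%; 3457 higher, 29.4%, and 3020 lower, 25.7%). The balance of directions moved with the scaling. Over WT it was 29 higher and 4 lower with median-ratio scaling, 110 and 17 with quantile normalization, 46 and 12 rescaled to equal sums, and 95 and 0 centred on the homeostatic list. Over B6 it was 2683 and 3876 rescaled to equal sums and 182 and 5228 centred. These contrasts share the onset libraries with the one above, so they are given side by side only. Spp1 was at 14.1 to 25.9 FPKM in WT and 2.87 to 15.9 in B6, and its change over WT was 4.70 (adjusted p = 0.0163). Cst7 changed by 3.64 over WT (adjusted p = 0.0373), Lilrb4a by 3.42 (adjusted p = 0.0372), Msr1 by 2.91 (adjusted p = 0.0163), Egr2 by 2.27 (adjusted p = 0.0163) and Ccl3 by 3.02 (adjusted p = 0.023). Of the disease-associated list 10 of 24 were called higher over WT and 0 lower, of the interferon list 1 of 21, and of the lysosome list 0 of 23. The WT count was 5 with a variance per group and 0 with only the 9 libraries of the contrast, and without onset replicate 2, 3 or 5 it was 5, 5 and 16.

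**Figure D5:**
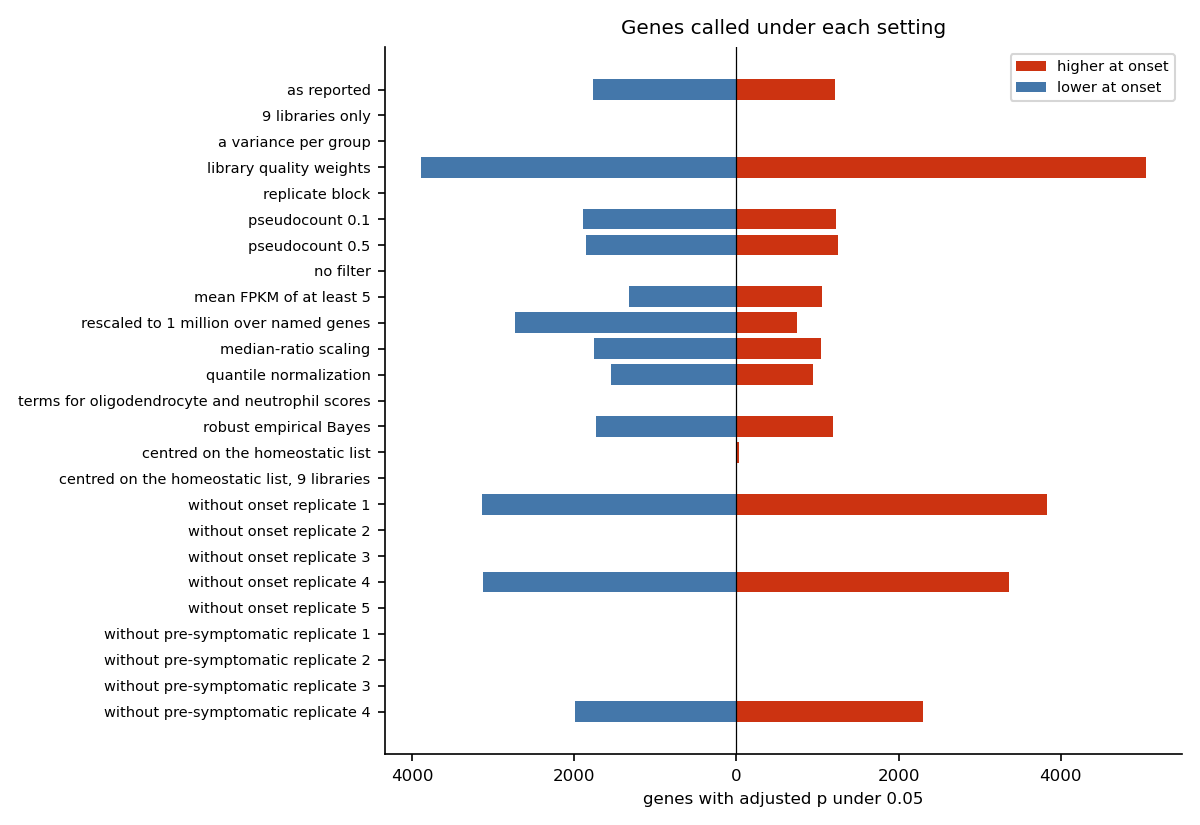
Number of genes called (adjusted p under 0.05) between onset and pre-symptomatic under each setting, with genes higher at onset to the right and lower to the left. The count runs from 0, with the 9 libraries alone, to 8934 with library quality weights.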

How the data were processed

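The authors deposited FPKM per feature for the non-grafted libraries, per the file headers, in a table with decimal commas. It holds 58976 features, of which 23297 with a gene symbol were used. Tools listed in the submitters' processing notes, without a role, are SAMtools, Picard, FastQC, R 3.2.5 and DESeq2, and the build is mm10, with aligner, counting and strand use not given in the sources used here. The FPKM of a library summed to between 484604 and 618562. The read depth cannot be recovered, so precision comes from replicates alone.

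The test was limma 3.58.1 (R 4.3.3) on log2(FPKM + 1), with group means of 8 groups and 33 libraries and empirical Bayes with trend. It took genes with a mean of at least 1 FPKM over those 33 libraries, with Benjamini-Hochberg adjustment over 11750 genes. A gene below 1 FPKM in a group could thus be tested only through groups where it was higher. The log2(FPKM + 1) scale understates changes of low genes. The fit was checked on simulated data with an equal spread in all groups, so that check does not cover the wider spread at onset. Replicates are separate mice. Genes were named by rule: the 12 largest changes without overlap and the 10 largest gaps in each direction (at least 5 FPKM), up to 6 called and the first 3 members of each of 42 lists, Sod1, and the 10 most spread genes at onset. Genes outside that rule were chosen after their values were seen: Bst2, Capg, Cd63, Cd72, Csf1, Ctsa, Cx3cl1, Cxcl14, Ifit1, Ifit2, Stat2, Trem2 and Tyrobp. Members and lists were chosen with earlier results of these data known. The alternatives tried are in the closing section.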

Additional observations from a re-analysis of the deposited data

Results flagged for a closer look

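Among 80 genes checked in both groups (160 groups of libraries), 9 had a library far from the others of its group on the log2 scale, by Dixon's test; chance gives about 5% of groups. In onset replicate 5, S100a8 was at 39128.5 FPKM, Ltf (lactoferrin of neutrophil granules) at 7517.79 FPKM, Hba-a1 (an alpha globin) at 16267.4 FPKM and Fos at 52.95 FPKM, each the highest of the 5. In pre-symptomatic replicate 2, Cybb was at 0.47, Ccl4 at 7.95, Ccl2 at 0.3 and Atf3 at 1.19 FPKM, each the lowest of the 4. In pre-symptomatic replicate 3, Hba-a1 was at 17.02 FPKM, the lowest of the 4.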

How the results depend on the processing

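The number of genes called between onset and pre-symptomatic was 2982. It was 0 with the 9 libraries alone, 0 with a variance per group, 9 with no filter, 8934 with library quality weights, 1 with terms for the scores of oligodendrocytes and neutrophils, and, both chosen after seeing the data, 37 centred on the homeostatic list and 0 centred with 9 libraries. Leaving out 1 library gave 0 to 6968. Rescaling each library to an equal sum over named genes gave 748 higher and 2735 lower of 13313 genes tested, with the median of all genes at -0.12 in place of 0.14. Median-ratio scaling gave 1038 and 1757, and quantile normalization 950 and 1542.

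With the replicate number as a block the count was 0 against pre-symptomatic, 4 against WT and 3088 against B6. The numbers do not pair the samples: same-numbered deviations correlated at 0.602, -0.516, 0.432 and -0.673 for numbers 1 to 4, and onset replicate 1 correlated better with pre-symptomatic replicate 2 (0.683) than with its own number.

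Against WT the count of 506 became 0 with 9 libraries, 5 with a variance per group, 7935 with quality weights, 1159 and 1149 with pseudocounts 0.1 and 0.5, 36 with no filter, 1091 at a mean of at least 5 FPKM, 58 rescaled to equal sums, 33 with median-ratio scaling, 127 with quantile normalization, 6 with the score terms, and 95 centred or 0 centred with 9 libraries; leaving out 1 onset library gave 5 to 4978. Against B6 the count of 6477 became 0 with 9 libraries, 2449 with a variance per group, 33 with the score terms and 0 centred with 9 libraries, and was 9224 with quality weights and 5410 centred; leaving out 1 onset library gave 2245 to 8039. Genes without overlap, 284, became 430 with no filter, 167 at a mean of at least 5 FPKM and 174 centred. Leaving out 1 library gave 308 to 1011, a rise whose direction was fixed by the way of counting.

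With the score terms these changed sign: the median of complement and Fc receptors (-0.0377), cytokines (-0.10), pattern recognition receptors (-0.24), NADPH oxidase (-0.0278), antioxidant response (0.18), alternative activation (-0.13), cholesterol synthesis (0.0053), TGF-beta pathway (-0.13), myeloid transcription factors (-0.26), oligodendrocytes (0.0625) and ependymal cells (0.26), and Snap25 (0.0802), Hmgcs1 (0.0777) and Sod1 (0.0197). The medians of homeostatic microglia (-0.65), ribosomal proteins (-0.03), glycolysis (0.22), ALS gene orthologs (0.01), pericytes and mural cells (0.19) and neutrophils (-0.08) changed sign too. Oligodendrocyte and neutrophil markers make up the scores, so medians near 0 for these lists follow from the terms. The antioxidant median, -0.18, was 0.0436 with the block, and ran from -0.312 to 0.0542 with 1 library left out, turning positive without onset replicate 3 (0.0542) or 5 (0.0436). The cause was not tested. Depth limits cannot be given without counts.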

Other observations

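Genes of lipid uptake and storage were higher in part. Of 15 lipid efflux and storage genes tested 6 were called higher and 0 lower, with a median change of 0.69 (0.29 with terms for the oligodendrocyte and neutrophil scores). Cd36, a fatty acid and scavenger receptor, was at 2.37, 24.9, 22.7, 4.10 and 17.6 FPKM in onset replicates 1 to 5 and at 1.94, 0.23, 0.98 and 1.46 FPKM before symptoms, without overlap. Soat1, which makes cholesterol esters, changed by 1.51 and the cholesterol exporter gene Abcg1 by 1.30. Of 10 leukocyte integrins tested 4 were called higher and 0 lower, with a median of 1.37, or 0.14 with those terms. Itgal, the alpha chain of LFA-1, was at 0.49 to 24.1 FPKM at onset and 0.00 to 0.44 before symptoms, and was highest in onset replicate 5, which also had the most neutrophil and monocyte RNA; the part of those cells was not tested. Of 18 ribosomal protein genes 2 were called higher and 0 lower, with a median change of 0.19 (-0.03 with those terms) beside 0.14 for all genes tested, and of 15 glycolysis genes 1 was called higher and 0 lower. Over all genes tested 10.3% were called higher and 15% lower. The ribosomal and glycolysis counts of higher genes were thus near the share of all genes.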
